A study of Mus musculus with 3 samples.

Results

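The tumour necrosis factor (TNF) superfamily, its TRAF adaptors and the NF-kB transcription factors were examined in 3 stromal cell populations of the mouse mesenteric lymph node. The set holds 62 of the 28084 gene names on the array. Members were taken by gene symbol, with no measured value used: TNF ligands and receptors, Lta, Ltb, Ltbr, Fas, Fasl, Cd27, Cd40, Cd40lg and Cd70, the genes whose symbol begins with Traf and a digit, the Nfkb, Rel, Rela and Relb genes, and Map3k14. Tnfsf11 and Tnfsf13b were left out of the set. By role there were 15 ligands, 24 receptors, 7 TRAF adaptors, 3 TRAF-interacting genes, 6 NF-kB subunits or kinases, and 7 genes of the IkB family or with a related name. Each gene was read from its brightest probe over the 3 arrays, and 16 members had several probes.

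Lymphatic endothelial cells (LEC, positive for both gp38 and CD31), blood endothelial cells (BEC, CD31 positive and gp38 negative) and fibroblastic reticular cells (FRC, gp38 positive and CD31 negative) came from the mesenteric lymph nodes of wild-type C57BL/6NCrl mice. All were sorted as CD45-negative, CD24-negative cells after collagenase digestion, with a stated mean purity of 88% ± 1.5, the kind of error being unstated. The ages of the mice and the number of mice or sorts behind each RNA are not given in the sources used here. Each population had 1 single-colour array, so the differences have no replicate check, and no test between populations was made. The arrays were read from RNA of whole sorted populations, in which fewer expressing cells and less RNA per cell cannot be told apart.

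TNF superfamily ligands are mostly trimeric membrane or secreted proteins that cluster their receptors, which then recruit TRAF adaptors or death-domain proteins. Downstream, the canonical branch frees RelA and p50 from IkB inhibitors, whereas the non-canonical branch, used by the lymphotoxin beta receptor, CD40 and RANK, stabilises the kinase NIK and yields p52 with RelB. Lymphotoxin signalling from haematopoietic cells to stroma is known to be needed for lymph node development and for the upkeep of high endothelial venules and chemokine-secreting reticular cells.

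Several of these genes carry the kB consensus, the DNA motif bound by NF-kB dimers, close to their start sites. Promoter windows of 250 bases before to 50 after each start were taken from RefSeq (GRCm38.p6), where 46 of the 62 members had an entry. Both strands were searched for the kB consensus, and overlapping matches were merged. It was found in 9 of these 46 members (19.6%) and in 1388 of 27025 genes in all (5.14%), which is a description and not a test. The members with a match were Ltb, Nfkb2, Nfkbia, Nfkbid, Nfkbie, Rel, Tnfrsf8, Tnfrsf9 and Traf3. The windows below are those of the 3 members that both held a match and differed at least 4-fold between populations, with the first Nfkb2 start beside them as the non-canonical subunit. Capitals mark the matched bases.
Ltb (chr17:35194257-35194556, plus strand): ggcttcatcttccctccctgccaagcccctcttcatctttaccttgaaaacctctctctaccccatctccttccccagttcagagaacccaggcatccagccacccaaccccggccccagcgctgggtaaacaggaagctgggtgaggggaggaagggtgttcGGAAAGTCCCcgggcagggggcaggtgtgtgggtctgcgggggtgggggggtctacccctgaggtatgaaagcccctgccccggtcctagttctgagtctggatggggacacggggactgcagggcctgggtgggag
Nfkbid (chr7:30422156-30422455, plus strand): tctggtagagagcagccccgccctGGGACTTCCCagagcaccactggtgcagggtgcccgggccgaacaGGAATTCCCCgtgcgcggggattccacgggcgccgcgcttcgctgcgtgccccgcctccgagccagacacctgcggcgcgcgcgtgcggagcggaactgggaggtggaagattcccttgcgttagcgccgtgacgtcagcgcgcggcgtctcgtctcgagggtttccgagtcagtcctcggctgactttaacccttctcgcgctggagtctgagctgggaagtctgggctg
Tnfrsf9 (chr4:150927749-150928048, plus strand): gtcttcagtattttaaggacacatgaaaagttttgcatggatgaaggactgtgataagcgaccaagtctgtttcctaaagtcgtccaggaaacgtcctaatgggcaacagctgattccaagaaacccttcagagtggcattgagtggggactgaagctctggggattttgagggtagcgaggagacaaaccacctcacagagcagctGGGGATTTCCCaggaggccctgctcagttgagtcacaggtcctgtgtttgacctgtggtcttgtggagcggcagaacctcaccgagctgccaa
Nfkb2 (chr19:46304487-46304786, plus strand): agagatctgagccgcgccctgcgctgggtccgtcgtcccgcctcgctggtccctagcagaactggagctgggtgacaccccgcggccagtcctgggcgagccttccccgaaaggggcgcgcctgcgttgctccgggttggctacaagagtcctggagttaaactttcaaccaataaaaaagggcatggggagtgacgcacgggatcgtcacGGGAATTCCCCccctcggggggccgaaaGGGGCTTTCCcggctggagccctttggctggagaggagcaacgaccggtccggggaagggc
The Ltb match began 87 bases before the start site. Of the 13 members with a promoter entry that differed at least 4-fold in some comparison, 3 held a match. A match does not show binding, and the lack of one says only that these letters were not in the window.

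**Figure D1:**
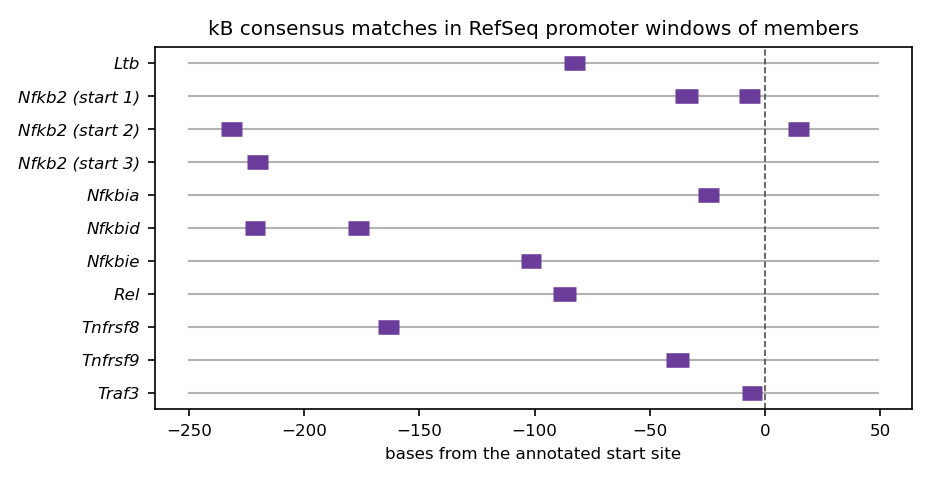
Each line is 1 RefSeq promoter window of a member with a kB consensus match, drawn by distance in bases from the annotated start site (dashed line), and each block is a match or a run of overlapping matches. Nfkb2 has 3 windows, for its 3 annotated starts, and Nfkbid and the first and second Nfkb2 windows hold 2 blocks each.

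The sorted cells carried the marker genes of their labels, but LEC and BEC each carried markers of the other as well. All 8 blood endothelial markers lay at least 4-fold above FRC in both LEC and BEC. All 8 FRC markers lay as far below FRC in both. In LEC against BEC, 6 of 8 blood endothelial markers were lower and 6 of 7 lymphatic markers higher by that measure. Against FRC, 6 of 7 lymphatic markers passed 4-fold upward in LEC, and 6 did so in BEC, where Pdpn was lower. The FRC markers Dcn (2.77) and Ccl19 (2.05) passed 4-fold for LEC minus BEC on the log2 scale. The source of this overlap was not tested. Of 41156 probes, 59.7% to 60.5% were well above background on each array by the mark of the scanner software. Replicate spots of the same probe had a median log2 SD of 0.05, a measure of spot error alone. Levels are log2 intensities over the array's own 75th percentile, and each may be set against the same gene on another array but not against another gene. A difference of at least 4-fold (2.0 on the log2 scale) is called a difference. Where the dimmer array had no probe of the gene well above background, the fold is given as at least its size.

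Members were detected more often than genes at large. In LEC 52 of 62 (83.9%) were well above background, in BEC 51 (82.3%) and in FRC 46 (74.2%), against 61.3%, 62.0% and 62.1% of all genes on the same arrays. On all 3 arrays 44 members were detected. Cd27, Tnf, Tnfrsf13b, Tnfrsf23, Tnfrsf25 and Tnfsf10 were detected in LEC and BEC but not in FRC. Lta was detected in BEC alone, Tnfrsf8 in LEC alone and Tnfsf9 in FRC alone, while Tnfsf8 was missing in BEC alone. The 8 members not well above background on any array were Cd40lg, Cd70, Fasl, Rel, Tnfrsf17, Tnfsf4, Tnfsf14 and Tnfsf18.

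Endothelial cells and FRC differed in which TNF family genes they carried. In LEC against FRC, 6 of the 53 compared members lay 4-fold or more above FRC, where 4.85% of all compared genes did, and 6 lay as far below, where 5.93% did. In either direction that is 22.6% of the members compared and 10.8% of all genes. The median member difference was 0.55, against 0.03 for all genes. In BEC against FRC, 9 of 53 lay 4-fold or more above FRC (6.56% of all genes) and 4 as far below (7.57%), together 24.5% of members against 14.1% of all genes. The median member difference there was 0.82, against 0.09 for all genes. The LEC and BEC comparisons share the FRC array. In LEC against BEC, 1 of 53 members lay 4-fold or more above BEC (3.39% of all genes) and 6 as far below (3.38%), together 13.2% of members against 6.78% of all genes, with a median of -0.31 against -0.07. Under normexp background correction, which compresses dim signals, 5 of 53 members passed 4-fold in LEC against FRC (3 higher, 2 lower), where 2.98% of all genes were higher and 3.45% lower. In BEC against FRC 5 did (3 higher, 2 lower), where 3.93% of genes were higher and 4.53% lower, and in LEC against BEC 1 did, where 1.57% were higher and 1.77% lower. The members' shares under that correction were thus near those of all genes in both comparisons with BEC.

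**Figure D2:**
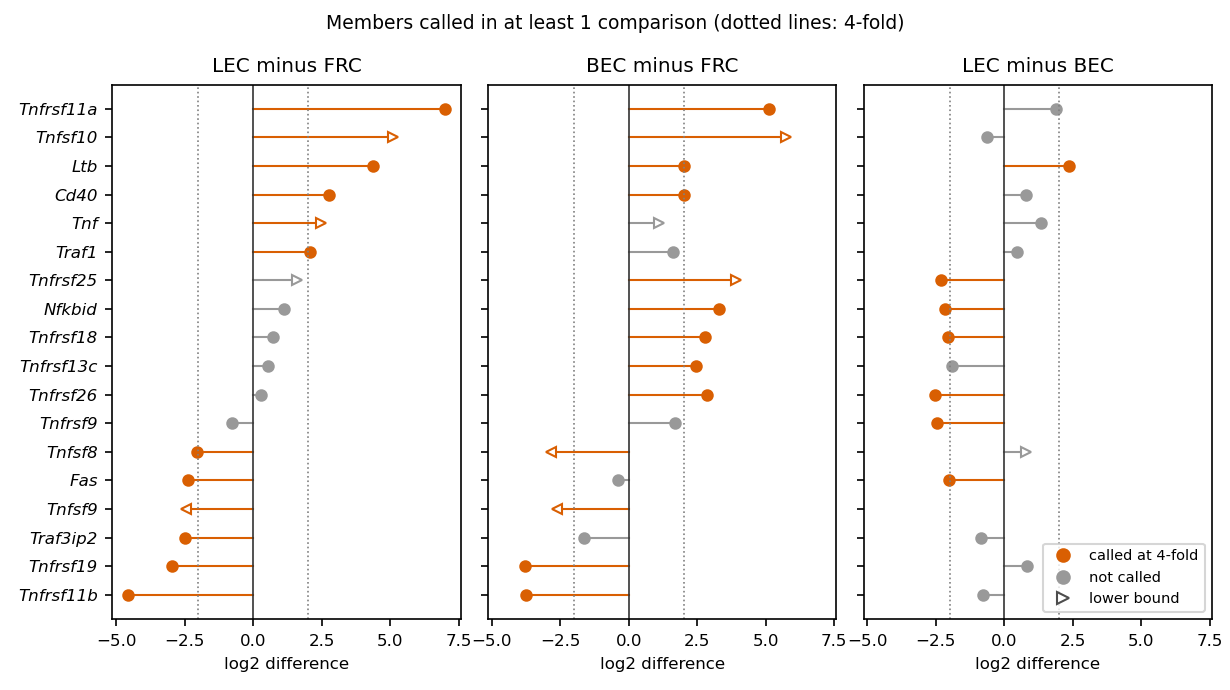
Each panel gives the log2 difference of 1 comparison (LEC minus FRC, BEC minus FRC, LEC minus BEC) for the 18 members that differed at least 4-fold in any of them, with dotted lines at 4-fold. Open triangles are lower bounds, Tnfrsf11a is drawn at its measured difference although its plotted probe was not well above background in FRC, and Tnfrsf11a, Tnfsf10, Ltb and Cd40 lie past the line toward the endothelial side in both comparisons with FRC.

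Among the ligands, Ltb, which encodes the membrane anchor of the lymphotoxin heterotrimer, stood highest in LEC. It was at 6.56 in LEC, 4.21 in BEC and 2.19 in FRC, so that the 3 populations were spread over more than 4 log2 units. The LEC level was 20.8-fold above FRC and 5.11-fold above BEC, and BEC was 4.06-fold above FRC. This BEC difference sat at the 4-fold line, and 4 of 8 alternative settings put it below. The Ltb probe lies at chr17:35333097-35333156 on mm9, the build of the probe positions in the files. No annotation of exons or untranslated regions on that build was used here.

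Ltb neighbours Tnf, Lta and Nfkbil1, whose probes lie within 24.2 kb on that chromosome. Tnf, the founding inflammatory cytokine of the family, was at -1.83 in LEC, -3.17 in BEC and -4.43 in FRC, where it was not well above background. Relative to FRC it was at least 2.46 log2 units higher in LEC and at least 1.12 higher in BEC. Lta, the soluble lymphotoxin subunit, was at -4.60 in LEC, -3.61 in BEC and -5.09 in FRC, and only the BEC signal was well above background. Nfkbil1, which encodes an IkB-like protein, was at 1.56, 1.80 and 0.82 in LEC, BEC and FRC, with no pair of arrays as much as 4-fold apart. Of the 4 neighbours, then, Ltb and Tnf were highest in LEC, and Lta and Nfkbil1 in BEC.

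Tnfsf10, which encodes the death ligand TRAIL, was an endothelial gene on these arrays. It was at 0.81 in LEC and 1.44 in BEC, against -5.01 in FRC, where it was not well above background. LEC thus stood at least 34.3-fold and BEC at least 53.2-fold above FRC, and the 2 endothelial populations differed by 1.55-fold. Of its receptors, Tnfrsf10b, the mouse death receptor for TRAIL, was at -2.22 in LEC, -1.84 in BEC and -3.82 in FRC. That is 3.02-fold and 3.95-fold above FRC, below the 4-fold line. The BEC value sat close to the line. It passed with median scaling, the authors' table, the mean of probes and the spike-in slope, and the LEC value passed with the spike-in slope.

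The ligands that were higher in FRC were Tnfsf8 and Tnfsf9. Tnfsf9, the 4-1BB ligand, was not well above background in LEC (-5.84) or BEC (-5.20), against -1.75 in FRC, which makes it at least 5.45-fold lower in LEC and at least 6.18-fold lower in BEC. Tnfsf8, the CD30 ligand, was at -3.58 in LEC, -6.50 in BEC and -1.54 in FRC. It was 4.13-fold lower in LEC and at least 7.17-fold lower in BEC than in FRC. The LEC difference was close to the threshold and kept in 6 of 8 alternative settings. The ligands left out of the set lay on the same side: Tnfsf11 (RANKL) was at -3.10, -4.75 and 1.96, and Tnfsf13b (BAFF) at -3.25, -3.99 and 2.06, in LEC, BEC and FRC. Tnfsf11 was not well above background in BEC.

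The other detected ligands stayed within 4-fold in every comparison. Tnfsf12, which encodes TWEAK, was at -2.90 in LEC, -1.22 in BEC and -1.20 in FRC, 3.23-fold lower in LEC than in FRC. The name Tnfsf12-Tnfsf13 marks a readthrough transcript of 2 adjacent ligand genes, and its probe gave 1.88, 2.88 and 1.94. Tnfsf15, which encodes TL1A, a ligand known from vascular endothelium, was low in all populations, at -3.40, -3.18 and -2.97. Tnfsf14, which encodes LIGHT, a further ligand of the lymphotoxin beta receptor, was not well above background anywhere.

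**Figure D3:**
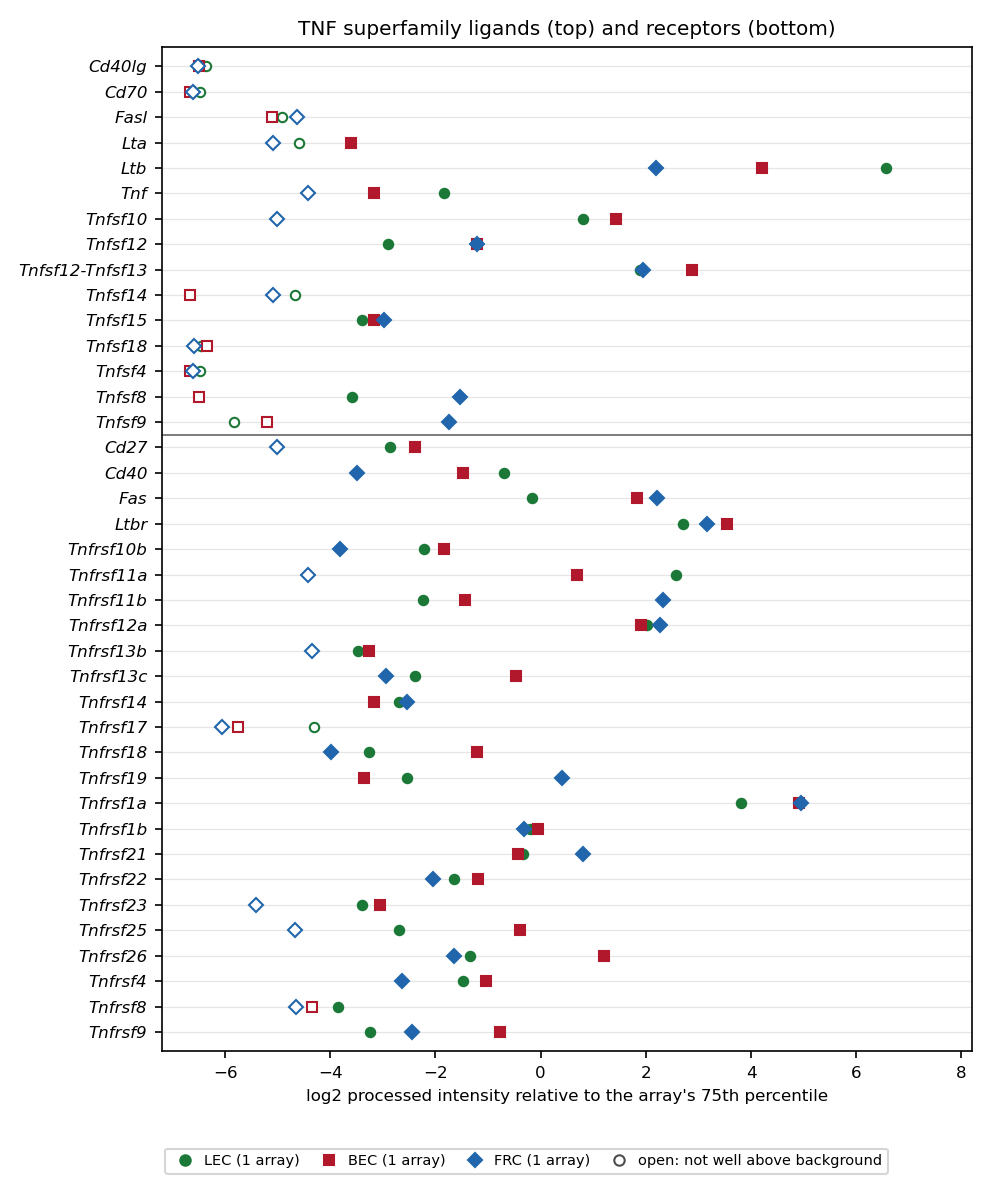
Levels of the 15 ligands (above the line) and 24 receptors (below it) on each array, as log2 processed intensity relative to the 75th percentile of the array, with 1 array each for LEC, BEC and FRC. Open symbols mark probes not well above background, and only points in the same row may be compared: Ltb spreads over 2.19 to 6.56, while Ltbr stays between 2.71 and 3.55.

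Of the 18 members that differed at least 4-fold in some comparison, 10 were receptors, which made up 24 of the 62 members. RANK, encoded by Tnfrsf11a, was higher in both endothelial populations. Its brightest probe was at 2.58 in LEC and 0.69 in BEC, against -4.42 in FRC, where that probe was not well above background. By this probe LEC stood at least 117-fold and BEC at least 31.6-fold above FRC. The gene's second probe was well above background on all arrays, and it read 0.05, -2.18 and -3.48, a difference of 3.53 for LEC minus FRC and 1.30 for BEC minus FRC. Both probes thus gave the order LEC, BEC, FRC, but for BEC the second fell short of 4-fold. The brightest probe lies at chr1:107743752-107743811 on mm9.

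Osteoprotegerin, the soluble decoy for RANKL and TRAIL encoded by Tnfrsf11b, went the other way. It was at -2.23 in LEC and -1.44 in BEC, against 2.33 in FRC. This was 23.6-fold lower in LEC and 13.6-fold lower in BEC. Tnfrsf19, which encodes the orphan receptor TROY, was at -2.54 in LEC and -3.36 in BEC, against 0.41 in FRC, 7.74-fold and 13.6-fold lower in the endothelial cells. Its second probe was not well above background on any array. With the Tnfsf11 values above, ligand and decoy were highest in FRC and the receptor RANK in LEC.

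Cd40, the costimulatory receptor for CD40 ligand, was at -0.71 in LEC and -1.48 in BEC, against -3.49 in FRC. LEC were 6.87-fold and BEC 4.02-fold above FRC, the BEC value being at the threshold and lost in 2 of 8 alternative settings. Its ligand gene Cd40lg was not well above background in any population. Fas, the death receptor, was at -0.17 in LEC, 1.84 in BEC and 2.22 in FRC, 5.23-fold lower in LEC than in FRC and 4.02-fold lower than in BEC. Another Fas probe read -1.61 for LEC minus FRC and -2.26 for LEC minus BEC. Fas was thus lowest in LEC by both probes, with the difference from BEC near the threshold and under it in 3 of 8 alternative settings.

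Tnfrsf25, Tnfrsf18 and Tnfrsf13c, receptors known mainly from lymphocytes, were at least 4-fold above FRC in BEC. Tnfrsf25, the TL1A receptor DR3, was at -2.70 in LEC, -0.40 in BEC and -4.68 in FRC, where it was not well above background. BEC were at least 14.9-fold above FRC, and LEC were 4.93-fold below BEC. The second Tnfrsf25 probe was not well above background on any array. Tnfrsf18, which encodes GITR, was at -3.27 in LEC, -1.21 in BEC and -3.98 in FRC, with BEC 6.84-fold above FRC and LEC 4.17-fold below BEC. This difference between LEC and BEC was kept in 6 of 8 alternative settings. The Tnfrsf18 neighbour Tnfrsf4 (OX40), with a probe within 12.3 kb, was at -1.48, -1.04 and -2.63, within 4-fold throughout. These neighbours share the order BEC, LEC, FRC, as did 38.6% of the members and 25.2% of the genes detected on all arrays. Tnfrsf13c, the BAFF receptor of B cells, was at -2.38 in LEC, -0.47 in BEC and -2.94 in FRC, 5.54-fold higher in BEC than in FRC. The 4-1BB gene Tnfrsf9 was at -3.24 in LEC, -0.77 in BEC and -2.45 in FRC, 5.51-fold lower in LEC than in BEC. Cd27, a T cell costimulatory receptor, was at -2.86 in LEC and -2.40 in BEC and not well above background in FRC (-5.01), at least 2.69-fold and 3.72-fold above FRC. All of the receptors in this group had their highest signal in BEC, but they were brought together with their levels known. Not all receptors peaked there: Cd40 was highest in LEC (-0.71, against -1.48 in BEC). Tnfrsf8 was detected in LEC alone, and Tnfrsf14 was highest in FRC (-2.53, against -3.17 in BEC).

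Pan-leukocyte transcripts were also highest in BEC by their sum, although all populations were sorted as CD45 negative. Of 9 pan-leukocyte markers, 6 lay at least 4-fold above FRC in BEC and 1 in LEC, and 0 differed by 4-fold between LEC and BEC. Of all compared genes, 6.56% lay as far above FRC in BEC and 4.85% in LEC. Fermt3 (1.63), Laptm5 (1.09) and Cd53 (0.10) were higher in LEC than in BEC on the log2 scale, and the other listed markers were higher in BEC. The summed intensity of the list was 11.4 in LEC, 27.5 in BEC and 6.30 in FRC, in units of the 75th percentile of the array. Ptprc, which encodes CD45, was at -1.57, 0.23 and -2.36. The CD45 gene thus had the same order as the list's sum. T cell markers summed to 9.90, 10.3 and 2.88, with 5 of 11 at least 4-fold above FRC in BEC and 3 in LEC, namely Cd5 (4.25), Cd247 (3.31) and Lck (3.07). Cd5 was at 1.81 in LEC, -0.32 in BEC and -2.44 in FRC. B cell markers summed to 6.52, 14.7 and 20.4, the FRC sum being led by Cr2 (4.09), with 3 of 9 at least 4-fold above FRC in BEC and Blk and Pax5 not well above background anywhere. Natural killer and innate lymphoid markers summed to 1.10, 1.87 and 0.44, with 3 of 8 at least 4-fold above FRC in BEC and Ncr1 and Klrb1c not well above background anywhere. Macrophage and dendritic cell markers summed to 14.7, 8.29 and 7.56, each sum being led by Lyz2 (3.23, 2.09 and 2.43). Of these 11 markers, 1 lay at least 4-fold above FRC in BEC, and Itgam and Siglech were not well above background anywhere. The part of leukocyte transcripts in the BEC levels of Tnfrsf9, Tnfrsf13c, Tnfrsf18, Tnfrsf25 and Cd27, and in the LEC levels of Ltb, Tnf and Cd40, was not tested.

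**Figure D4:**
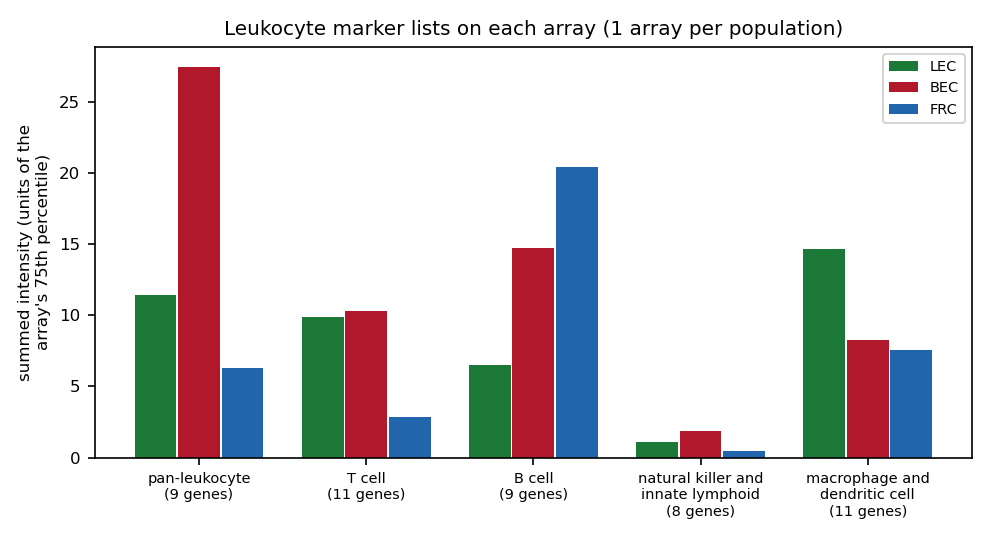
Bars give the summed intensity of each leukocyte marker list on the LEC, BEC and FRC arrays (1 array each), in units of the 75th percentile of the array. The pan-leukocyte sum is 11.4 in LEC, 27.5 in BEC and 6.30 in FRC. The macrophage and dendritic cell sum is highest in LEC at 14.7, led by Lyz2. The B cell sum is highest in FRC at 20.4, led by Cr2.

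Tnfrsf26, a mouse receptor gene next to Tnfrsf22 and Tnfrsf23, was at -1.35 in LEC, 1.19 in BEC and -1.65 in FRC. BEC stood 7.16-fold above FRC, and LEC 5.83-fold below BEC. The probes of these 3 paralogues lie within 60.5 kb on chromosome 7, and Tnfrsf22 and Tnfrsf23 encode TRAIL decoy receptors in mouse. Tnfrsf22 was at -1.64, -1.19 and -2.05, and Tnfrsf23 at -3.39 and -3.05 in LEC and BEC and not well above background in FRC. Tnfrsf26 was the paralogue that passed 4-fold. Whether the probes of such close copies read each other's RNA was not tested.

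The main receptors for TNF, lymphotoxin and TWEAK were present in every population within 4-fold. Ltbr, the lymphotoxin beta receptor, was at 2.71 in LEC, 3.55 in BEC and 3.16 in FRC. Tnfrsf1a, the ubiquitous TNF receptor with a death domain, was at 3.81, 4.92 and 4.95, 2.20-fold lower in LEC than in FRC. Tnfrsf1b, the TNF receptor without a death domain, was at -0.20, -0.05 and -0.32, and Tnfrsf12a (Fn14) at 2.03, 1.92 and 2.26. Tnfrsf14, the herpesvirus entry mediator, was at -2.69, -3.17 and -2.53. Tnfrsf21, the death-domain receptor DR6, was at -0.33 in LEC and -0.42 in BEC, against 0.81 in FRC. The remaining receptors, Tnfrsf8, Tnfrsf13b and Tnfrsf17, were near or under background in every population, at no more than -3.27.

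Ligand and receptor were often measured on the same array. Of 18 listed pairs with both genes on the array, both were well above background for 8 pairs in LEC, 9 in BEC and 3 in FRC. Ltb with Ltbr and Tnfsf12 with Tnfrsf12a were found together in all populations, and Tnfsf9 with Tnfrsf9 in FRC alone. Tnf with either of its receptors and Tnfsf10 with Tnfrsf10b or Tnfrsf11b were found together in LEC and BEC. Tnfsf8 with Tnfrsf8 were found together in LEC. The pairs with Lta were found together in BEC, and the pairs of Tnfsf4, Tnfsf14, Tnfsf18, Cd40lg, Cd70 and Fasl nowhere, as the ligand was not well above background.

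Inside the cell, 3 members passed 4-fold in some comparison: Traf1, Traf3ip2 and Nfkbid. All 7 TRAF adaptors were well above background on all arrays, and Traf1, an adaptor that is itself an NF-kB target, was the only one to pass 4-fold. It was at 2.76 in LEC, 2.31 in BEC and 0.68 in FRC, 2.08 log2 units above FRC in LEC, close to the threshold and under it in 2 of 8 alternative settings, and 1.63 above in BEC. The degradative adaptor Traf3, which holds NIK in check, was at 2.25, 1.07 and 1.56. Traf2, its partner, was at 3.71, 4.08 and 3.11. Traf3 was thus highest in LEC and Traf2 in BEC. Traf4 was at 0.17, 0.65 and 1.58, the only TRAF adaptor highest in FRC. Traf5 (1.60, 2.34 and 1.82), Traf6, which serves CD40, RANK and Toll-like receptors (-0.52, -0.28 and -0.75), and Traf7 (1.40, 1.71 and 0.43) also stayed within 4-fold.

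Of the TRAF-interacting genes, Traf3ip2 encodes Act1, the adaptor of interleukin-17 receptors. It was at -2.21 in LEC and -1.36 in BEC, against 0.27 in FRC, 2.48 log2 units lower in LEC and 1.63 lower in BEC. Traf3ip1 (-1.51, -1.78 and -2.13) and Traf3ip3 (-2.96, -1.72 and -3.31 in LEC, BEC and FRC) did not reach 4-fold.

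Map3k14, Nfkb2 and Relb, the kinase and subunits of the non-canonical branch, were each highest in LEC and lowest in FRC, without reaching 4-fold. Map3k14, which encodes NIK, was at 2.36 in LEC, 1.44 in BEC and 0.56 in FRC, with LEC 3.47-fold above FRC. Nfkb2, the precursor of p52, was at 3.59, 2.79 and 1.97, with LEC 3.07-fold above FRC. Relb was at 4.93, 3.95 and 3.38, with LEC 2.93-fold above FRC. Of the 44 members well above background on all arrays, 9 had this order (20.5%), as did 16.7% of the 15642 genes detected on all arrays. The share of members is near that of all genes. The others with this order were Cd40, Ltb, Nfkbil2, Tnfrsf11a, Traf1 and Traf3ip1. More members, 17 of 44 (38.6%), had the order BEC, LEC, FRC, which 25.2% of genes had.

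The canonical subunits were less far above FRC in LEC than Map3k14, Nfkb2 and Relb. In BEC minus FRC, Rela (0.51) also lay below all of these. Nfkb1 (0.81) there lay above Relb (0.58), level with Nfkb2 (0.82) and below Map3k14 (0.88). Rela was at 3.36 in LEC, 3.39 in BEC and 2.88 in FRC. Nfkb1, the precursor of p50, was at 2.69, 2.72 and 1.91 through its brightest probe, at most 1.75-fold apart. Rel, which encodes the lymphocyte-rich subunit c-Rel, was not well above background on any array, at -6.43, -4.80 and -6.56. The position given for its only probe covers 15 bases on mm9, and how well that probe reads Rel was not tested. All 5 detected subunit and kinase genes were above FRC in both endothelial populations. Of all compared genes, 51.5% were above FRC in LEC and 54.7% in BEC. The 5 genes lay above FRC by a median of 1.55 in LEC and 0.81 in BEC, none by as much as 4-fold. The sign was not kept throughout: the 3 other Nfkb1 probes gave -0.50, -2.69 and -0.31 for BEC minus FRC, the mean of its probes gave -0.67, and Rela gave -0.17 for LEC minus FRC after division by the spike-in slope. The Nfkb1 probe at -2.69 was not well above background in BEC.

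**Figure D5:**
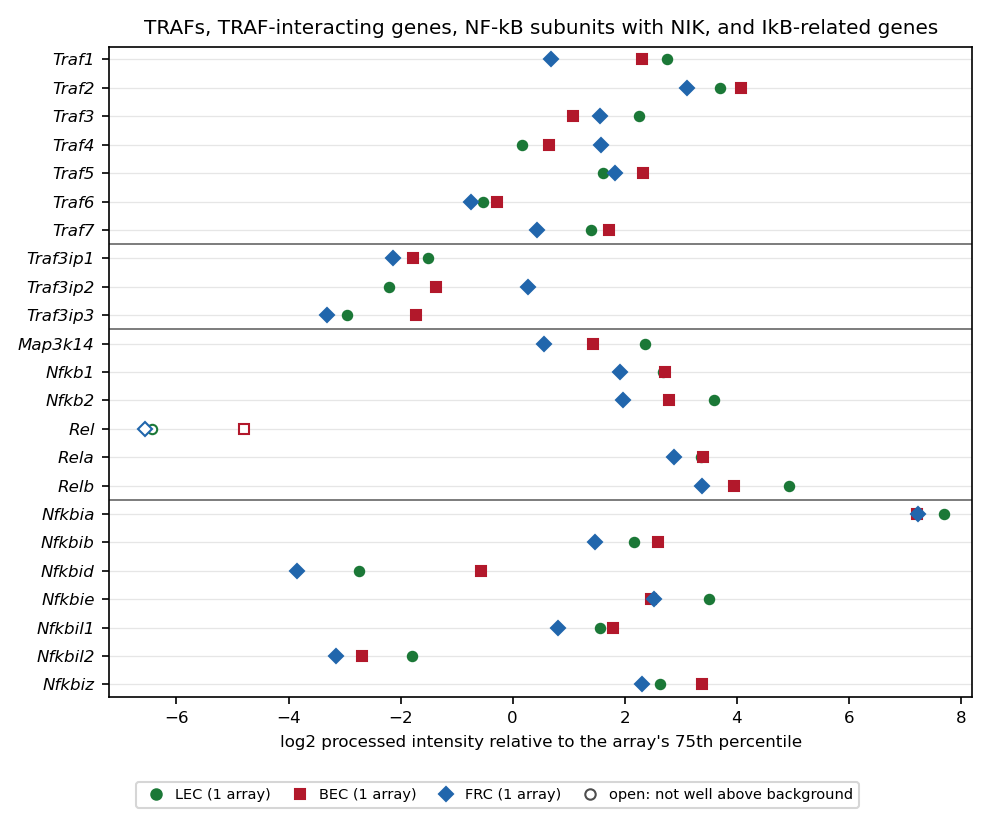
Levels of the TRAF adaptors, TRAF-interacting genes, NF-kB subunits with Map3k14, and IkB-related genes (blocks from top to bottom) on the LEC, BEC and FRC arrays, as log2 processed intensity relative to the 75th percentile of the array. Open symbols (Rel) are not well above background, and Map3k14, Nfkb2 and Relb each run LEC, BEC, FRC from high to low.

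Among the inhibitors, Nfkbid was the only one to pass 4-fold. It encodes IkBNS, a nuclear IkB protein that tunes NF-kB target genes in lymphocytes and macrophages. Nfkbid was at -2.74 in LEC, -0.56 in BEC and -3.85 in FRC, with BEC 9.78-fold above FRC and LEC 4.52-fold below BEC. Its order, BEC, LEC, FRC, was also that of the pan-leukocyte sum and of 25.2% of the genes detected on all arrays. The part of leukocyte transcripts in its BEC level was not tested. Nfkbia, the classical inhibitor IkB alpha, was at 7.69, 7.22 and 7.24, with no more than 1.39-fold between populations. Nfkbib (2.17, 2.59 and 1.47), Nfkbie (3.50, 2.47 and 2.52) and Nfkbiz (2.63, 3.38 and 2.30) reached at most 2.16-fold. Nfkbil2, which is Tonsl in the current annotation and encodes a DNA repair protein, was at -1.80, -2.68 and -3.15.

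Of 34 genes for the IkB kinase complex, its adaptors and ubiquitin regulators, 1 lay at least 4-fold above FRC in LEC, the kinase gene Map3k1 (2.40), and 1 in BEC, the paracaspase gene Malt1 (2.85). In LEC against BEC, 1 was lower, the kinase gene Map3k8 (-2.12). Of all compared genes, 4.85% lay as far above FRC in LEC and 6.56% in BEC, and in LEC 3.39% lay as far above BEC and 3.38% below. The median of the 34 was 0.35 for LEC minus FRC and 0.33 for BEC minus FRC. Of 18 death receptor pathway genes, 2 lay at least 4-fold above FRC in BEC, Casp8 (2.22), which encodes the initiator caspase, and the survival gene Bcl2l1 (2.10), and 0 differed in the comparisons with LEC. Among 6 superfamily genes under other symbols, 3 were at least 4-fold above BEC in LEC: Ngfr, Eda and Edaradd. Ngfr, the low-affinity neurotrophin receptor, was at 1.59 in LEC, -1.59 in BEC and 2.77 in FRC, 4.37 log2 units lower in BEC than in FRC. Eda, which encodes ectodysplasin, was at least 3.07 log2 units lower in BEC than in FRC, and Edaradd, the adaptor of its receptor, at least 2.15 higher in LEC than in FRC.

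Known targets did not follow a single direction. Of 30 canonical NF-kB target genes on the array, 5 lay at least 4-fold above FRC and 4 as far below it in LEC, and 7 above and 9 below in BEC. Of all compared genes, 4.85% lay as far above FRC and 5.93% below in LEC, and 6.56% and 7.57% in BEC. In LEC against BEC, 6 targets were higher and 2 lower by that measure, as were 3.39% and 3.38% of all genes. Ccl20, a CCR6 ligand, was at 3.81 in LEC, -2.21 in BEC and -6.35 in FRC, where it was not well above background. Targets highest in FRC included Mmp3 (-1.19, -4.12 and 3.92 in LEC, BEC and FRC) and Tnfaip6 (-1.68, -3.01 and 3.08). Of 13 lymphotoxin beta receptor targets of lymphoid stroma, 2 lay above and 6 below FRC in LEC by the same measure, and 4 above and 5 below in BEC. Those higher in BEC were Fut7 (6.85), Glycam1 (6.62), Chst4 (2.76) and Madcam1 (2.05), genes known from high endothelial venules. Glycam1 (4.91) and Fut7 (2.90) were also those higher in LEC. Glycam1 (-1.71) and Madcam1 (-1.11) were within 4-fold for LEC minus BEC. Fut7 (-3.96) and Chst4 (-2.26) were at least 4-fold lower in LEC than in BEC. In that comparison 1 of the 13 targets was higher in LEC and 4 were lower, against 3.39% and 3.38% of all genes. Those lower in BEC than in FRC were the chemokine genes Ccl19 (-5.79) and Cxcl13 (-5.78), the adhesion gene Vcam1 (-2.43), and Tnfsf11 and Tnfsf13b.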

How the data were processed

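Total RNA of each sorted population was amplified in 1 round and labelled with a fluorescent dye, per the labels' protocols. The deposited scanner files hold intensity values, background-subtracted within each array and not scaled between arrays, per the file headers. The scanner software was Agilent Feature Extraction (version 10.7.3.1 in the submitters' processing notes). The authors' deposited table of all samples holds linear intensity values with the same distribution in every column, and was an alternative only. Outlier-flagged spots were dropped (18 probes lost), and repeat spots were averaged. Values were log2 of the intensity over the array's own 75th percentile (268 in LEC, 361 in BEC and 387 in FRC). A gene was compared if a probe was well above background on either array. Bounds took, on the dimmer array, the larger of the array's lowest value well above background and the probe's measured value. The comparison step was tested on simulated data. Members, lists and alternatives were chosen with earlier results of these data known. Members called at 4-fold and the central genes of the pathway were named, with up to 6 genes of each other list. Gene names are those of the files, checked by accession against RefSeq (GRCm38.p6), which matched 58 members. Normexp used R 4.3.3 with limma 3.58.1, and the rest Python 3.11.15 with pandas 2.3.3. The number of arrays, 1 per population, limits the precision. No spot was saturated, and all arrays lay on 1 slide.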

Additional observations from a re-analysis of the deposited data

How the results depend on the processing

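Of 32 differences of at least 4-fold, 9 were kept under all 8 alternatives: Ltb, Tnfrsf11a, Tnfrsf11b and Tnfsf10 in LEC against FRC, and Tnfrsf11a, Tnfrsf11b, Tnfrsf19, Tnfrsf26 and Tnfsf10 in BEC against FRC. No member difference past 4-fold changed sign under any of them. Normexp background correction with an offset of 50, which compresses dim signals by its construction, left 5 members in LEC against FRC (3 higher, 2 lower), 5 in BEC against FRC (3 higher, 2 lower) and 1 in LEC against BEC (0 lower). It also lowered the shares of all genes, to 2.98% higher and 3.45% lower in LEC against FRC, 3.93% and 4.53% in BEC against FRC, and 1.57% and 1.77% in LEC against BEC. A 2-fold threshold gave 25 in LEC against FRC (15 higher, 10 lower), 27 in BEC against FRC (21 higher) and 15 in LEC against BEC (5 higher, 10 lower), where 12.9% and 13.3%, 16.7% and 16.5%, and 11.0% and 10.2% of all genes were higher and lower. With no filter on dim probes, or with the mean of a gene's probes, 2 members were higher in LEC than in BEC. Dividing each array by its spike-in slope (1.00 in LEC, 0.919 in BEC and 0.821 in FRC) gave 0, as Ltb went to 1.96. The cause was not tested. Median scaling, a percentile over probes well above background, and the authors' table changed 3 or fewer member differences each. The spike-in slope and a bound by the gene's own probe were chosen after seeing the data. No paired analysis was possible because each population had 1 array, and for the same reason no replicate could be left out. Signals near background limit the dim members: the 75th percentile was 18.3 to 20.8 times the lowest intensity well above background.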

Other observations

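Different probes of a member did not always agree. A further probe with signal well above background pointed the same way as the brightest one in 11 of 13 cases for LEC minus FRC, in 9 of 15 for BEC minus FRC and in 10 of 15 for LEC minus BEC. Among the differences of at least 4-fold, all of the other probes did (2 of 2, 1 of 1 and 2 of 2). A second Tnfrsf1b probe gave -1.62 for LEC minus FRC, against 0.13 for the brightest. For Tnfrsf9, another probe was well above background in BEC alone, at -2.32.

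Some members were neighbours in the genome: 21 of 62 had a probe within 100 kb of another member's probe, in 8 clusters on mm9. How often this holds for other sets of genes was not counted. In the cluster of Tnfsf9, Cd70 and Tnfsf14 (82.7 kb), Tnfsf9 was detected, in FRC, and the other genes on no array. In that of Cd27, Ltbr and Tnfrsf1a (129 kb), Ltbr and Tnfrsf1a were well above background on all arrays, and Cd27 on the LEC and BEC arrays.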
